A study of Homo sapiens with 9 samples.

Results

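The heat shock and chaperonin genes were examined in Huh7 cells, a human hepatocellular carcinoma line, in which the histone demethylase KDM4C had been silenced. The set held 39 genes, given by name, out of 32906 genes listed in every library. By role it comprised 2 heat shock transcription factors, 4 HSP70 genes, 3 HSP110 genes, 2 HSP90 genes, 3 small heat shock protein genes, 6 J-domain genes, 7 co-chaperone genes and the 8 subunits of the cytosolic chaperonin. The remaining 4 genes, HSPA9, HSPD1, HSPE1 and TRAP1, encode chaperones of the mitochondrion, so the set was not purely cytosolic.

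Cells were transfected for 48 hours with a scrambled siRNA (Scramble, labelled as control) or with either of a pair of siRNAs against KDM4C (Si-KDM4C#1 and Si-KDM4C#2, labelled as KDM4C knockdown). All groups came from the same line, and each gave 3 RNA-seq libraries. The labels do not say that these came from separate cultures, so the p-values measure the spread between libraries, which may be technical. In RNA from whole cultures, fewer cells of a type and less RNA per cell cannot be told apart. Values are FPKM, fragment counts scaled for the exon length of the gene and the size of the library. Fitted depth ran from 14597503 to 18058556 fragments per library. KDM4C itself stood at 4.69 ± 0.167 FPKM (SD, n = 3) in Scramble, 1.14 ± 0.0395 under Si-KDM4C#1 and 0.287 ± 0.0535 under Si-KDM4C#2. The ratio of its mean FPKM to that in Scramble was 0.243 and 0.0611. Its log2 fold change on the log2(FPKM + 1) scale used below, which understates the change of low genes, was -1.41 and -2.15.

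The liver identity on the labels was not visible in the mRNA. Of 14 hepatocyte and hepatoma markers, 11 were read here (ALB, APOB and TTR were not analysed here), and all 11 stayed under 1 FPKM in every library. Their summed level was 0.181 to 0.262 FPKM in Scramble, 0.0483 to 0.0959 under Si-KDM4C#1 and 0.216 to 0.450 under Si-KDM4C#2. The keratin genes KRT8 and KRT18 reached 204.8 and 167.1 FPKM, whereas CDH1 stayed under 1 FPKM and EPCAM was not analysed here. These epithelial markers summed to 329.8 to 352.9 FPKM in Scramble, 289.7 to 308.8 under Si-KDM4C#1 and 240.1 to 254.0 under Si-KDM4C#2. The 5 mesenchymal markers, led by VIM, summed to 70.8 to 78.5, 67.8 to 72.5 and 88.7 to 90.8 FPKM in the same order. All 3 blood and all 3 endothelial markers stayed under 1 FPKM. The part of these shifts in the results for the heat shock genes was not tested. The cells are called Huh7 only as the labels name them.

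As background, heat shock factor HSF1 is held inactive by chaperones in unstressed cells. When unfolded proteins draw those chaperones away, HSF1 forms trimers and binds heat shock elements, which are repeats of the unit GAA read in alternating directions, in the promoters of chaperone genes. HSP70 and HSP90 chaperones fold and mature client proteins with the help of J-domain proteins, nucleotide exchange factors and co-chaperones, and the ring-shaped chaperonin CCT folds actin and tubulin.

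The heat shock element letters in the promoters are shown first. Only exact matches within the promoter windows were searched, so they do not show that a member has or lacks a site that HSF1 binds. Stretches of the RefSeq promoter windows (GRCh38.p14) of 8 members are printed 5′ to 3′ on the strand of the gene, with the matching letters in capitals. HSPA1A and HSPA1B are shown with 100 bases and the others with 30. They lie at chr6:31815391-31815490 (HSPA1A, plus strand), chr6:31827587-31827686 (HSPA1B, plus), chr11:123062346-123062375 (HSPA8, minus), chr14:102087105-102087134 (HSP90AA1, minus), chr2:197500061-197500090 (HSPD1, minus), chr12:119178832-119178861 (HSPB8, plus), chr9:33025263-33025292 (DNAJA1, plus) and chr11:90223084-90223113 (CHORDC1, minus).
HSPA1A: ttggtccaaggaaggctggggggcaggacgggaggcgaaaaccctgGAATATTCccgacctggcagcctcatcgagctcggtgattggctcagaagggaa
HSPA1B: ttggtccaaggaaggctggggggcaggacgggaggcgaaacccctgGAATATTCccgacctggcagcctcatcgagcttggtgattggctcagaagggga
HSPA8: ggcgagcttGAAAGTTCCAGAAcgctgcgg
HSP90AA1: tcTTCCGGAAGGTTCgggaggcTTCTGGAA
HSPD1: gcattTTCTGGAAAGTTCTGGAAccgagcg
HSPB8: tcatcacctccGAATATTCctgtgacagga
DNAJA1: ggcgcgccgggcgGAACTTTCCAGAAcgct
CHORDC1: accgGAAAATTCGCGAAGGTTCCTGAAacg

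Capitals mark a pair of units, GAANNTTC or TTCNNGAA, or 3 units, GAANNTTCNNGAA or TTCNNGAANNTTC. A pair reads the same on both strands, each form of 3 units is the reverse complement of the other, and every match to 3 units contains overlapping pairs. Windows of 300 bases (250 before the RefSeq start to 50 after) were read for 35 of the 39 genes, 49 windows in all. HSF1, STUB1, CCT6A and CRYAB were not searched. A pair occurred in 20 of these windows (40.8%, 19 genes), compared with 13.5% of the 35116 windows in the table. A match to 3 units occurred in 7 windows (14.3%), 1 for each of HSPA8, HSPD1, HSP90AA1, HSP90AB1, DNAJA1, DNAJB6 and CHORDC1, compared with 0.49% of all windows. The windows of HSPE1, HSPH1, BAG3 and AHSA1 held neither form. In some GENCODE 29 transcript models the first exon begins before the RefSeq start and covers part of a window.

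**Figure D1:**
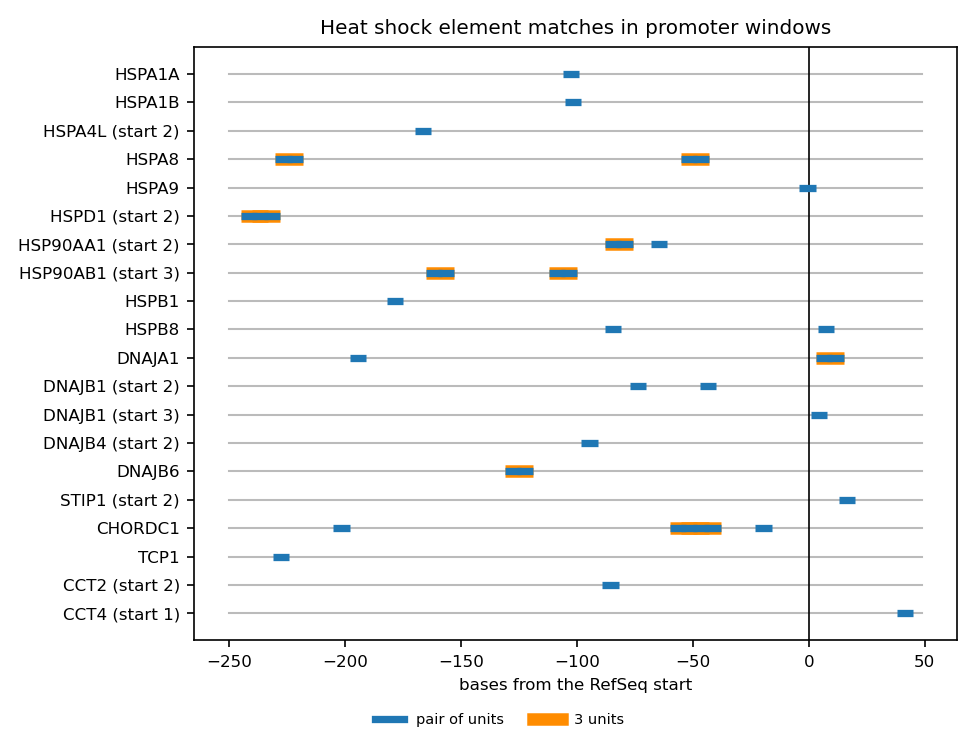
Heat shock element matches in the promoter windows with at least 1 match, plotted as distance in bases from the RefSeq start (0). Blue bars are pairs of units and orange bars are runs of 3 units; HSPA8 and HSP90AB1 each held a run of 3 units at 2 places, and the HSPA1A and HSPA1B pairs lay at nearly the same distance.

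HSPA1A and HSPA1B, the stress-inducible HSP70 genes, were among the members that rose most with either siRNA, and HSPB8, a small heat shock protein of the BAG3 autophagy complex, was the member that fell most. The group did not move as a block. Comparisons were made on log2(FPKM + 1) by limma-trend over 14363 genes with Benjamini-Hochberg adjustment, and fold changes on this scale understate the change of low genes. Counts are over the 37 genes that averaged 1 FPKM or more across the 9 libraries. HSPA2 and CRYAB were below that level and are described apart. A gene is said to have risen or fallen at an adjusted p under 0.05, and to be called when its fold change also exceeded 2.

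With Si-KDM4C#1, 20 of the 37 genes rose (54.1%) against 31.7% of all genes tested, and 8 fell (21.6%) against 33.9%. Under quantile normalization the split was 14 higher to 12 lower. With Si-KDM4C#2, 24 rose (64.9%) against 34.4% of all genes, and 8 fell (21.6%) against 25.0%. The median log2 fold change of the 37 genes was 0.15 under Si-KDM4C#1 and 0.28 under Si-KDM4C#2, and that of all genes tested was -0.032 and 0.057. Their summed level was 0.910 ± 0.0108% of all FPKM in Scramble, 0.993 ± 0.0221% under Si-KDM4C#1 and 1.18 ± 0.00400% under Si-KDM4C#2 (SD, n = 3). This last sum includes HSPA2 and CRYAB.

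Past the 2-fold limit, Si-KDM4C#1 raised HSPA1A, HSPA1B and AHSA1 (3 of 37, against 4.04% of all genes) and lowered HSPB8 (1 of 37, against 4.83%). Si-KDM4C#2 raised HSPA1A, HSPA1B and HSPD1 (3 of 37, against 2.6%) and lowered HSPB8 (1 of 37, against 2.3%). The siRNAs share the Scramble libraries, so these lists are not independent of each other. In the direct comparison of Si-KDM4C#2 and Si-KDM4C#1, DNAJA1 and HSPD1 were called higher (2 of 37, against 4.41%) and 0 of 37 lower, against 2.49% of all genes. That count was 0 by limma-voom as well. The largest fall by limma-trend was log2 -0.64 (HSPA4L). Over the alternatives that kept all libraries, the HSPA4L value ran from -0.84 to -0.64. At adjusted p alone, 13 were higher under Si-KDM4C#2 (35.1%, against 35.9% of all genes) and 12 lower (32.4%, against 26.5%). Scaling moved this split to 11 higher and 19 lower with median-ratio size factors, 11 and 22 with limma-voom on recovered fragments, 11 and 16 after a GC adjustment, and in the other direction to 16 and 12 with quantile normalization. Median-ratio scaling also moved the median of all genes in the direct comparison from 0.082 to -0.021, and members close to that median changed side with it.

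**Figure D2:**
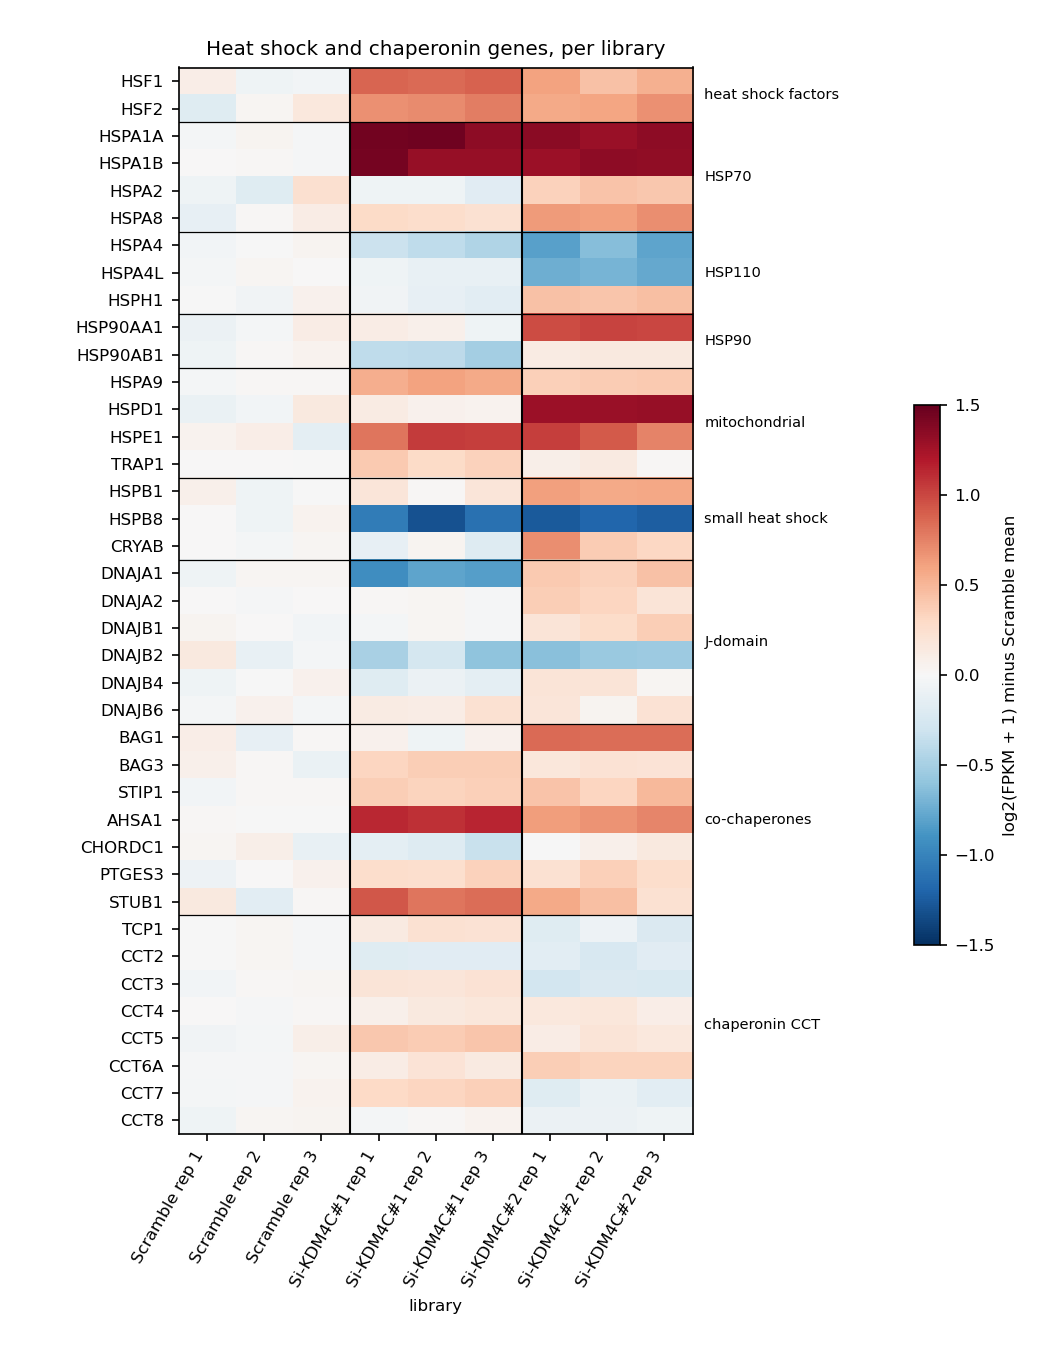
Level of all 39 genes in each of the 9 libraries as log2(FPKM + 1) minus the mean of the Scramble libraries, grouped by role, with red higher and blue lower. HSPA1A and HSPA1B were dark red in all 6 knockdown libraries and HSPB8 blue in all 6, while HSP90AA1, HSPD1 and BAG1 were red in the Si-KDM4C#2 libraries and near white under Si-KDM4C#1.

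Both heat shock factors rose with each siRNA. HSF1, the main activator of the stress response, was at 21.0, 18.7 and 18.9 FPKM in Scramble, 36.7, 35.8 and 36.9 under Si-KDM4C#1, and 30.3, 26.8 and 28.7 under Si-KDM4C#2. No 2 groups overlapped, and Si-KDM4C#1 gave the highest level. Its log2 fold change was 0.87 (standard error 0.0553, adjusted p = 7.01e-07) and 0.53 (adjusted p = 3.01e-05), and it was lower under Si-KDM4C#2 than under Si-KDM4C#1 (-0.34, adjusted p = 0.000447). After adjustment for GC content these changes were 0.57 and 0.16 (adjusted p = 0.00454 for the latter). HSF2, a second factor that can pair with HSF1, went from 8.40 ± 1.10 FPKM to 14.4 ± 0.455 and 13.3 ± 0.645, and its log2 fold change was 0.72 and 0.61.

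The inducible HSP70 genes rose with both siRNAs. HSPA1A stood at 28.3, 29.9 and 28.6 FPKM in Scramble, 80.6, 81.3 and 75.0 under Si-KDM4C#1, and 75.2, 72.5 and 74.6 under Si-KDM4C#2. Every knockdown library lay above every Scramble library, and the siRNA groups overlapped each other narrowly at 75 FPKM. The ratio of means was 2.73 under Si-KDM4C#1 (log2 fold change 1.42, standard error 0.0403, adjusted p = 1.06e-08) and 2.56 under Si-KDM4C#2 (1.33, adjusted p = 3.13e-08).

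HSPA1B, the neighbouring copy, stood at 23.3, 23.4 and 22.9 FPKM in Scramble, 64.7, 58.9 and 59.0 under Si-KDM4C#1, and 58.1, 60.1 and 59.8 under Si-KDM4C#2. It followed the same pattern, with no overlap between Scramble and either siRNA. Its log2 fold change was 1.35 (adjusted p = 1.38e-08) and 1.32 (adjusted p = 3.50e-08). Neither gene passed the test between the siRNAs (HSPA1A -0.089, adjusted p = 0.0799, and HSPA1B -0.035, adjusted p = 0.490). Without Si-KDM4C#1 replicate 3 the HSPA1A difference did pass (-0.13, adjusted p = 0.0206). With median-ratio size factors both passed (-0.22, adjusted p = 0.00111, and -0.17, adjusted p = 0.0058), as they did with limma-voom, and HSPA1A passed after GC adjustment (-0.14, adjusted p = 0.0383).

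The separate values of these copies are uncertain. Their transcripts were 95.0% identical over 2401 aligned bases, 69.9% of all 100-base stretches of HSPA1A occurred unchanged in HSPA1B, and their promoter windows were 92.6% identical. GENCODE 29 also places AL671762.1 over 36.5% of the HSPA1B exons. Handling of reads that map to several places is not given in the sources used here. The ratio of HSPA1A to HSPA1B was 1.25 ± 0.0290 in Scramble, 1.3 ± 0.0721 under Si-KDM4C#1 and 1.25 ± 0.0444 under Si-KDM4C#2. Their sum was 52.1 ± 1.018, 139.8 ± 5.65 and 133.4 ± 0.867 FPKM (SD, n = 3). It hardly depends on how reads were split between the copies, but it would lack any reads that were discarded or assigned to AL671762.1.

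HSPA8, the constitutive HSP70 that is abundant in every cell, was at 147, 163 and 174 FPKM in Scramble, 197, 194 and 189 under Si-KDM4C#1, and 250.3, 246.9 and 262.7 under Si-KDM4C#2. The groups stood in 3 steps without overlap. The log2 fold change was 0.26 (adjusted p = 0.00232) and 0.65 (adjusted p = 8.80e-06), and Si-KDM4C#2 exceeded Si-KDM4C#1 by 0.39 (adjusted p = 0.000237), or 0.25 with median-ratio size factors. Under quantile normalization the change under Si-KDM4C#1 was 0.13 (adjusted p = 0.0539). HSPA8 also has 11 listed pseudogenes, whose sum was 1.05 to 3.06 FPKM. As the inducible pair rose further than HSPA8, its level relative to HSPA8 went from 0.324 ± 0.0272 in Scramble to 0.722 ± 0.0143 and 0.527 ± 0.0137. HSPA2, known from testis, reached 0.560 ± 0.239, 0.448 ± 0.0611 and 1.04 ± 0.0671 FPKM, and entered the test only through the Si-KDM4C#2 group.

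**Figure D3:**
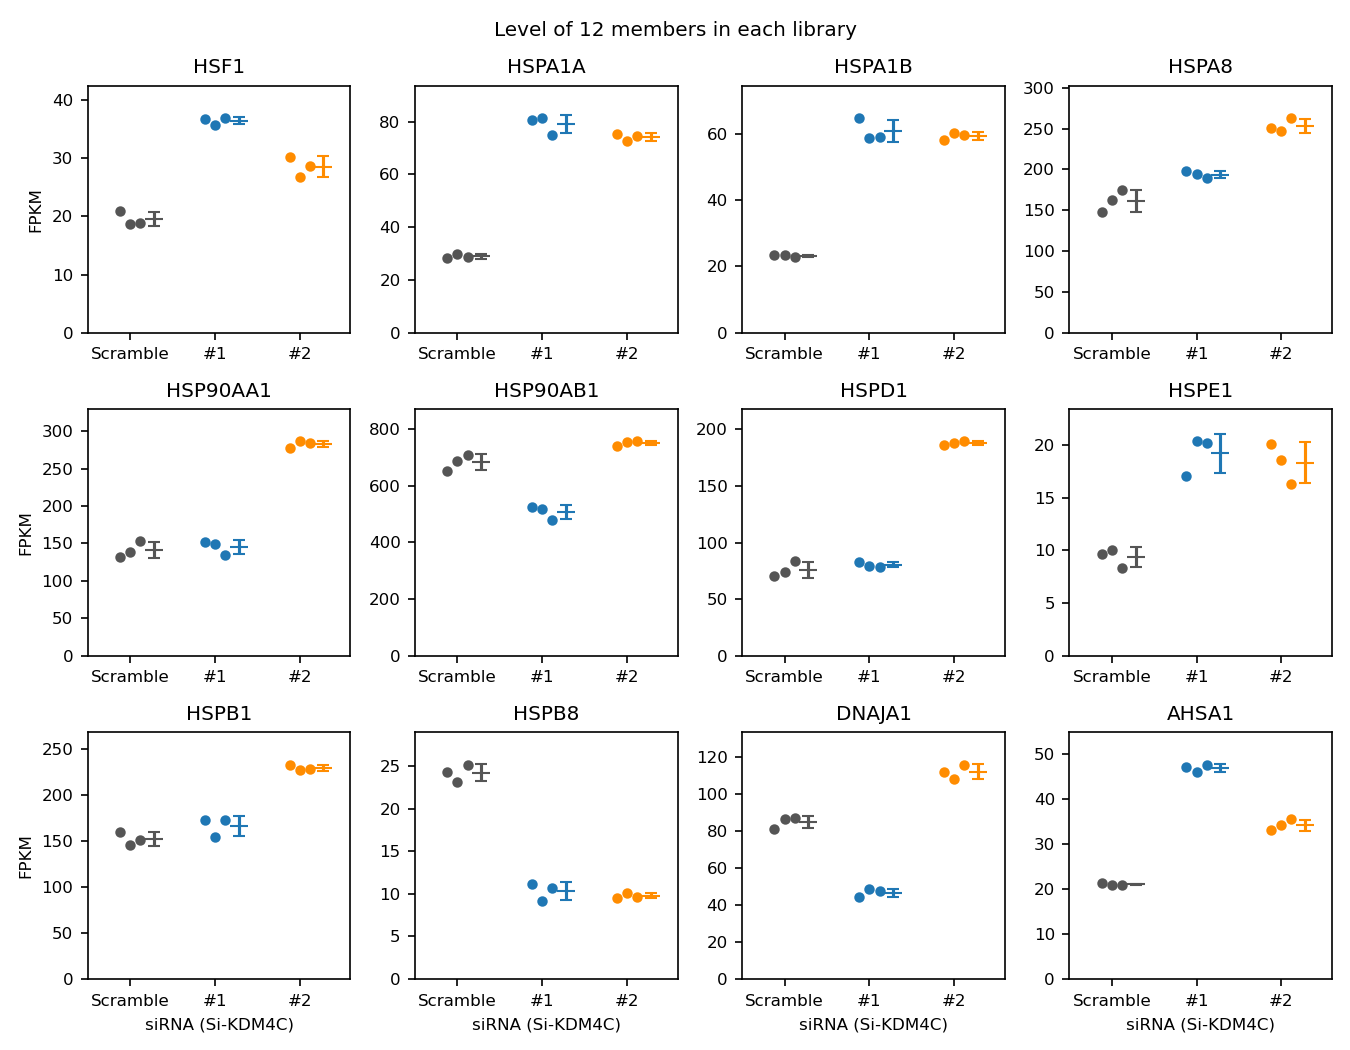
FPKM of 12 genes in each library (points) with the mean and SD of each group of 3 (bar) for Scramble (grey), Si-KDM4C#1 (#1, blue) and Si-KDM4C#2 (#2, orange); every axis starts at 0. HSP90AA1, HSPD1 and HSPB1 overlapped between Scramble and Si-KDM4C#1 and stood apart under Si-KDM4C#2, and DNAJA1 lay below Scramble under Si-KDM4C#1 and above it under Si-KDM4C#2.

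The HSP110 genes, which encode nucleotide exchange factors for HSP70, did not follow HSPA1A. HSPA4 went from 50.3 ± 1.39 FPKM to 38.3 ± 1.74 and 29.5 ± 2.00, a fall of log2 -0.38 (adjusted p = 0.000139, and -0.22 after GC adjustment) and -0.75 (adjusted p = 2.47e-06). HSPA4L had a log2 change of -0.095 under Si-KDM4C#1 (adjusted p = 0.0661) and fell under Si-KDM4C#2 (-0.73, adjusted p = 5.59e-07), from 13.4 ± 0.315 to 7.68 ± 0.246 FPKM. Under Si-KDM4C#1 its value was 0.17 after GC adjustment (adjusted p = 0.00223) and -0.16 with quantile normalization (adjusted p = 0.00868).

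HSPH1, the HSP110 gene most strongly induced by heat, was at 14.3, 13.8 and 15.1 FPKM in Scramble, 13.8, 13.2 and 12.8 under Si-KDM4C#1, and 19.87, 19.58 and 19.98 under Si-KDM4C#2. Only the Si-KDM4C#2 libraries stood clearly apart. Its rise under Si-KDM4C#2 was 0.43 (adjusted p = 2.39e-05). The fall under Si-KDM4C#1 (-0.11, adjusted p = 0.0473) rested on the setting: it lost the call without Scramble replicate 1 (-0.12, adjusted p = 0.0765) or Scramble replicate 3 (-0.080, adjusted p = 0.156), without Si-KDM4C#1 replicate 2 (adjusted p = 0.108) or 3 (adjusted p = 0.138), and without any of the Si-KDM4C#2 libraries (adjusted p = 0.0625 to 0.0674). It was -0.036 with median-ratio size factors (adjusted p = 0.496) and -0.040 with limma-voom (adjusted p = 0.543), and turned to 0.12 after GC adjustment (adjusted p = 0.0383).

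The cytosolic HSP90 genes differed between the siRNAs. HSP90AA1, the inducible alpha form, was at 133, 138 and 153 FPKM in Scramble, 152, 149 and 135 under Si-KDM4C#1, and 278, 286 and 284 under Si-KDM4C#2. Scramble and Si-KDM4C#1 overlapped, and Si-KDM4C#2 lay far above both. The log2 fold change was 0.040 under Si-KDM4C#1 (adjusted p = 0.572) and 1.00 under Si-KDM4C#2 (standard error 0.0595, adjusted p = 8.63e-07), just short of the 2-fold limit. It was over that limit without Scramble replicate 3 (1.06). The Si-KDM4C#1 value passed as lower with quantile normalization (-0.16, adjusted p = 0.0252) and as higher with limma-voom (0.12, adjusted p = 0.036). The direct difference between the siRNAs was 0.96 (adjusted p = 8.12e-07).

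HSP90AB1, the constitutive beta form, was the most abundant member, at 652, 689 and 707 FPKM in Scramble, 525, 519 and 478 under Si-KDM4C#1, and 741, 753 and 756 under Si-KDM4C#2. Its groups stood in 3 steps, with the Si-KDM4C#1 group lowest. It fell under Si-KDM4C#1 (-0.43, adjusted p = 2.33e-05). The rise under Si-KDM4C#2 was 0.14 (adjusted p = 0.0264), and leaving out Scramble replicate 1 (adjusted p = 0.0781) or 2 (adjusted p = 0.0511), or any Si-KDM4C#2 library (adjusted p = 0.0505 to 0.0714), took the adjusted p over 0.05, as did each of the other scalings tried. HSP90AA1 amounted to 0.207 ± 0.00804 of HSP90AB1 in Scramble, 0.286 ± 0.00406 under Si-KDM4C#1 and 0.377 ± 0.00274 under Si-KDM4C#2 (SD, n = 3).

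The mitochondrial chaperonin genes, which lie head to head on chromosome 2, differed from each other. HSPD1, the HSP60 ring subunit, was at 70.4, 73.6 and 84.0 FPKM in Scramble, 82.7, 79.4 and 78.6 under Si-KDM4C#1, and 186, 188 and 189 under Si-KDM4C#2. The Si-KDM4C#1 libraries lay within the Scramble range and the Si-KDM4C#2 libraries were more than 2-fold above it. The log2 fold change was 1.3 under Si-KDM4C#2 (standard error 0.0582, adjusted p = 1.69e-07) and 0.081 under Si-KDM4C#1 (adjusted p = 0.244), which became 0.15 without Scramble replicate 3 (adjusted p = 0.00707). That value also passed after GC adjustment (0.21, adjusted p = 0.012) and with limma-voom (0.16, adjusted p = 0.00967), and it was -0.11 with quantile normalization (adjusted p = 0.126). The siRNAs differed by 1.22 (adjusted p = 1.73e-07).

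HSPE1, the HSP10 lid of that ring, was at 9.68, 10.1 and 8.29 FPKM in Scramble, 17.1, 20.3 and 20.2 under Si-KDM4C#1, and 20.1, 18.6 and 16.3 under Si-KDM4C#2. Both siRNA groups lay above Scramble and overlapped each other. It rose by log2 0.96 (standard error 0.0968, adjusted p = 1.55e-05) and 0.90 (adjusted p = 3.57e-05), and the Si-KDM4C#1 value was past the 2-fold limit with median-ratio size factors (1.04), with limma-voom (1.11), with a pseudocount of 0.1 (1.03), and without Scramble replicate 2 (1.01) or Si-KDM4C#1 replicate 1 (1.04). The ratio of HSPD1 to HSPE1 was 8.23 ± 1.64 in Scramble, 4.22 ± 0.548 under Si-KDM4C#1 and 10.3 ± 1.21 under Si-KDM4C#2.

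The HSPE1 values carry an annotation limit. Its 15 listed pseudogenes summed to 6.97 to 10.3 FPKM, near its own level, and 23.9% of its exon bases are shared with HSPD1 or HSPE1-MOB4, which was not analysed here. The strand setting of the counting is not given in the sources used here. The 4 alternating units printed above for HSPD1 span chr2:197500068-197500085, which is 228 to 245 bases before that HSPD1 start and 294 to 311 bases before the RefSeq start of HSPE1, outside the HSPE1 window. HSPA9, the mitochondrial HSP70, rose from 106 ± 2.05 FPKM to 158 ± 3.49 and 138 ± 1.49 (log2 0.57 and 0.38, or 0.36 and 0.25 under quantile normalization). TRAP1, the mitochondrial HSP90, rose under Si-KDM4C#1 (0.34, adjusted p = 5.09e-05) and had a change of 0.078 under Si-KDM4C#2 (adjusted p = 0.122). It shares 29.3% of its exon bases with other genes, mainly DNASE1 on the opposite strand.

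Among the small heat shock proteins, HSPB8 fell with either siRNA and HSPB1 rose with 1 of them. HSPB8 was at 24.3, 23.2 and 25.2 FPKM in Scramble, 11.2, 9.15 and 10.6 under Si-KDM4C#1, and 9.56, 10.1 and 9.67 under Si-KDM4C#2. All 6 knockdown libraries were below 12 FPKM and none overlapped Scramble. The log2 fold change was -1.16 (standard error 0.0663, adjusted p = 3.67e-07) and -1.23 (adjusted p = 4.72e-07). Over all alternatives it ran from -1.26 to -1.08 and from -1.38 to -1.20, but when the fold itself was tested against 2 neither value passed. The siRNAs differed by -0.067 (adjusted p = 0.406), and by -0.14 without Si-KDM4C#1 replicate 2 (adjusted p = 0.0409). That difference also passed with median-ratio size factors (-0.19, adjusted p = 0.0375) and limma-voom (-0.22, adjusted p = 0.0293).

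HSPB1, the HSP27 chaperone of actin and aggregating proteins, was at 160, 145 and 151 FPKM in Scramble, 172, 154 and 172 under Si-KDM4C#1, and 233, 227 and 228 under Si-KDM4C#2. The first groups overlapped and the third was higher. It rose by 0.59 under Si-KDM4C#2 (adjusted p = 1.02e-05), or 0.24 after GC adjustment. With Si-KDM4C#1 it was 0.13 (adjusted p = 0.0575), and it passed without Scramble replicate 1 (0.16, adjusted p = 0.0252) or Si-KDM4C#1 replicate 2 (0.18, adjusted p = 0.00784). It passed as higher with median-ratio size factors (0.21, adjusted p = 0.00638) and limma-voom (0.21, adjusted p = 0.000532) too, whereas GC adjustment turned it to -0.16 (adjusted p = 0.00812). CRYAB, a lens and muscle crystallin, was at 0.191 ± 0.0233, 0.119 ± 0.0955 and 0.656 ± 0.244 FPKM, too low for the test.

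**Figure D4:**
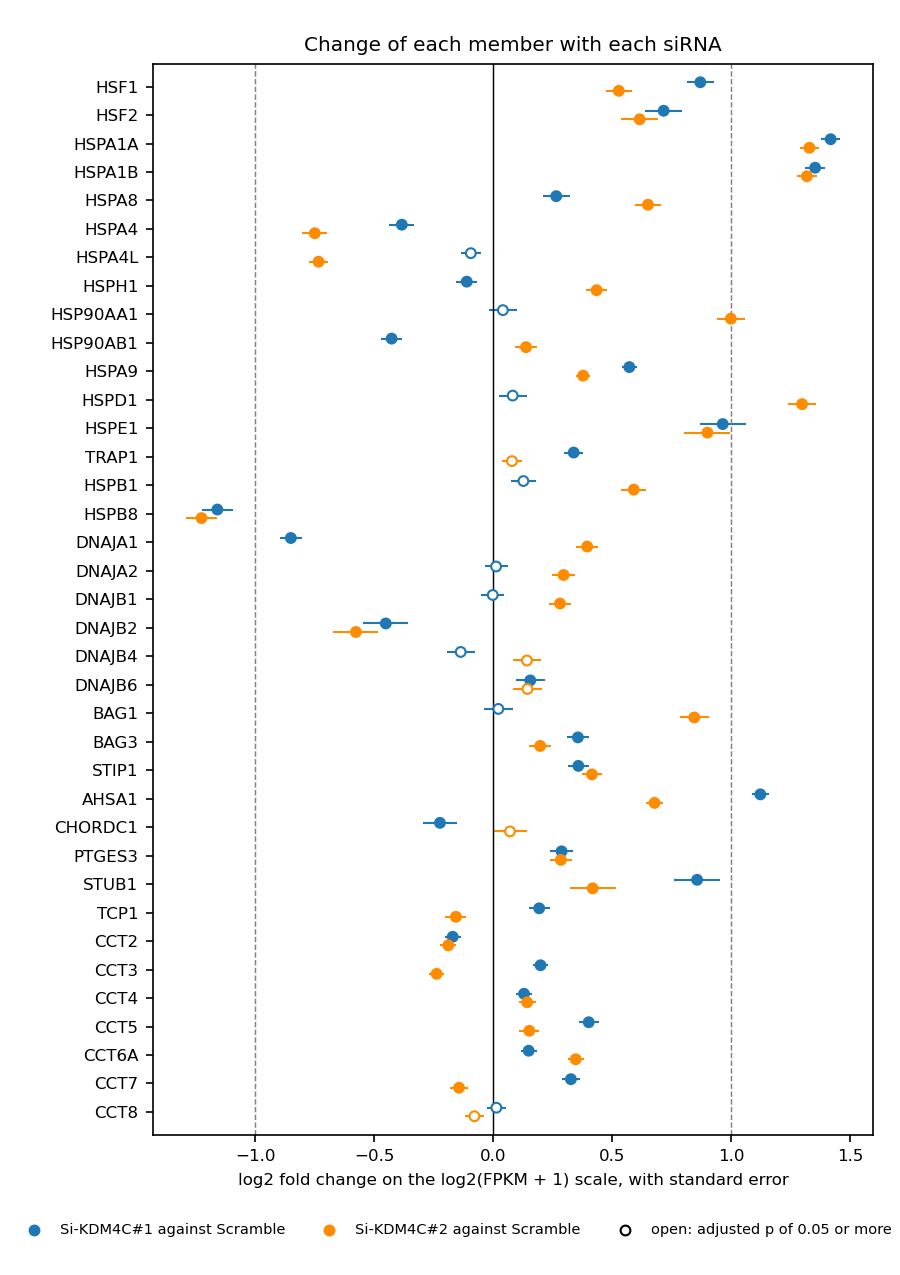
Log2 fold change on the log2(FPKM + 1) scale with its standard error for the 37 genes at a mean of 1 FPKM or more, Si-KDM4C#1 (blue) and Si-KDM4C#2 (orange) against the same Scramble libraries; open symbols did not pass the limma-trend test and dashed lines mark a 2-fold change. HSPA1A, HSPA1B and HSPB8 lay outside the dashed lines with both siRNAs, AHSA1 under Si-KDM4C#1 and HSPD1 under Si-KDM4C#2; among the Si-KDM4C#1 values, GC adjustment turned HSPH1, HSPA4L, HSPB1, DNAJB4 and CHORDC1, quantile normalization turned HSPD1, HSP90AA1, HSPB1, DNAJA2, BAG1, CCT4, CCT6A and CCT8, and median-ratio scaling turned DNAJB1. Of the Si-KDM4C#2 values, TRAP1 turned under quantile normalization and GC adjustment, and DNAJB6 under GC adjustment.

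DNAJA1 was the only one of the 37 genes to fall under Si-KDM4C#1 and rise under Si-KDM4C#2 by more than 0.3 each way. DNAJA1, a J-domain protein that hands clients to HSP70, was at 81.4, 86.8 and 87.1 FPKM in Scramble, 44.3, 48.6 and 47.4 under Si-KDM4C#1, and 112, 108 and 116 under Si-KDM4C#2. The groups did not overlap, with Scramble between the siRNAs. Its log2 fold change was -0.85 (standard error 0.0465, adjusted p = 2.80e-07) and 0.39 (adjusted p = 6.60e-05). The direct difference of 1.25 (adjusted p = 4.14e-08) was the largest of the 37 genes, and ran from 1.11 to 1.32 over all alternatives.

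DNAJB1, the heat-inducible HSP40, was at 32.0, 31.2 and 30.1 FPKM in Scramble, 30.5, 31.8 and 30.8 under Si-KDM4C#1, and 35.8, 37.9 and 40.3 under Si-KDM4C#2. Scramble and Si-KDM4C#1 covered the same range. The value under Si-KDM4C#1 was -0.0026 (adjusted p = 0.967), which became a fall of -0.18 with quantile normalization (adjusted p = 0.0117), and under Si-KDM4C#2 0.28 (adjusted p = 0.000679). Of the other J-domain genes, DNAJB2, the neuronal form, fell with each siRNA (-0.45 and -0.58). DNAJA2 rose under Si-KDM4C#2 (0.30, adjusted p = 0.000555), DNAJB6 rose slightly under Si-KDM4C#1 (0.16, adjusted p = 0.0456), and DNAJB4 passed with neither (-0.14 and 0.14). After GC adjustment DNAJB6 did not pass (adjusted p = 0.573), while DNAJB4 passed as higher with both siRNAs (0.19 and 0.32) and DNAJA2 under Si-KDM4C#1 (0.21, adjusted p = 0.00398).

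Of the co-chaperones, 5 of 7 rose under Si-KDM4C#1, against 31.7% of all genes, and 6 of 7 under Si-KDM4C#2, against 34.4% (4 and 5 under quantile normalization). CHORDC1 fell under Si-KDM4C#1 (-0.22, adjusted p = 0.0184), although it stood at 0.083 (adjusted p = 0.278) after GC adjustment and did not pass with median-ratio size factors (adjusted p = 0.0649). AHSA1, the activator of the HSP90 ATPase, was at 21.3, 20.9 and 20.9 FPKM in Scramble, 47.0, 46.0 and 47.6 under Si-KDM4C#1, and 33.0, 34.2 and 35.5 under Si-KDM4C#2. Its groups were far apart and tight. The log2 fold change was 1.12 (standard error 0.0358, adjusted p = 1.55e-08) and 0.68 (adjusted p = 4.21e-07), and Si-KDM4C#2 was lower than Si-KDM4C#1 by log2 -0.44 (adjusted p = 4.22e-06). Quantile normalization brought the first value to 0.95, under the 2-fold limit.

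STUB1, the ubiquitin ligase CHIP that sends HSP70 clients to the proteasome, was at 14.36, 11.41 and 13.03 FPKM in Scramble, 25.4, 23.1 and 23.8 under Si-KDM4C#1, and 19.6, 17.9 and 15.3 under Si-KDM4C#2. Neither knockdown group overlapped Scramble. It rose by 0.86 (adjusted p = 3.40e-05) and 0.42 (adjusted p = 0.00439), values that were 0.55 and 0.047 after GC adjustment (adjusted p = 0.596 for the latter). STUB1 shares 42.4% of its exon bases with JMJD8 on the opposite strand, so its level is uncertain.

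BAG3, the exchange factor that pairs with HSPB8 in autophagy, was at 30.1, 28.9 and 26.6 FPKM in Scramble, 35.7, 37.3 and 37.2 under Si-KDM4C#1, and 32.2, 33.2 and 33.1 under Si-KDM4C#2. Both siRNA groups lay above Scramble while HSPB8 lay below it. BAG3 rose by 0.36 (adjusted p = 0.000102) and 0.20 (adjusted p = 0.00517), which after GC adjustment were 0.21 and 0.012 (adjusted p = 0.826 for the latter). With quantile normalization the Si-KDM4C#2 value was 0.059 (adjusted p = 0.295). BAG1, another exchange factor, was at 21.0 ± 1.73 FPKM in Scramble, 21.3 ± 1.14 under Si-KDM4C#1 and 38.5 ± 0.201 under Si-KDM4C#2, a rise of 0.84 (adjusted p = 2.47e-06) with the second siRNA. STIP1, which joins HSP70 to HSP90, rose by 0.36 (0.16 under quantile normalization) and 0.41 (0.26 after GC adjustment). PTGES3, the HSP90 partner p23, rose by 0.29 (0.040 with quantile normalization, adjusted p = 0.457) and 0.28, and its 4 listed pseudogenes summed to 11.6 to 18.5 FPKM beside its 126 ± 5.99 FPKM in Scramble.

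The chaperonin CCT is an obligate complex of 8 different subunits, and none of its genes was called in any comparison. With Si-KDM4C#1, 6 of 8 rose (against 31.7% of all genes) and CCT2 fell, within -0.17 to 0.40. The fall of CCT2 did not pass with median-ratio size factors (adjusted p = 0.0569) or limma-voom (adjusted p = 0.0788). With Si-KDM4C#2, 3 rose and 4 fell, within -0.24 to 0.35. The 3 that rose were near the 34.4% of all genes, and 25.0% of all genes fell. These small shifts depended on the scaling: quantile normalization left 2 higher and 2 lower under Si-KDM4C#1 and turned CCT4, CCT6A and CCT8 negative, and gave 1 higher and 5 lower under Si-KDM4C#2. The mean of the 8 subunits was 99.9 ± 2.22 FPKM in Scramble, 112.6 ± 1.71 under Si-KDM4C#1 and 99.3 ± 0.857 under Si-KDM4C#2.

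CCT3 was the subunit with the highest level on average over all libraries, at 171, 178 and 179.8 FPKM in Scramble, 201, 200.4 and 205 under Si-KDM4C#1, and 146, 152 and 150.4 under Si-KDM4C#2. It stood above Scramble with the first siRNA and below it with the second (0.20, adjusted p = 0.000404, and -0.24, adjusted p = 0.000157). TCP1 was the lowest, at 49.03, 50.1 and 48.5 FPKM in Scramble, 54.2, 57.8 and 57.2 under Si-KDM4C#1, and 43.4, 46.7 and 42.1 under Si-KDM4C#2. It showed the same order, with a rise of 0.19 (adjusted p = 0.00362) and a fall of -0.16 (adjusted p = 0.0124) that did not pass without Si-KDM4C#2 replicate 3 (-0.13, adjusted p = 0.0516). CCT7 moved likewise (0.33 and -0.14). CCT6A, at 128.7 ± 2.44 FPKM in Scramble and 142.8 ± 4.63 under Si-KDM4C#1, reached 163.9 ± 2.16 FPKM under Si-KDM4C#2, where it was above CCT3 in every library.

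CCT5 rose by 0.40 (0.22 under quantile normalization) and 0.15, CCT6A by 0.15 and 0.35, and CCT4 by 0.13 and 0.14, while CCT8 passed with neither siRNA (0.013 and -0.079). With quantile normalization CCT8 passed as lower with both (-0.19 and -0.18). The Si-KDM4C#2 rises of CCT4 and CCT5 did not pass with quantile normalization, median-ratio size factors or limma-voom. The highest subunit was 3.58 ± 0.113 times the lowest in Scramble, 3.59 ± 0.124 times under Si-KDM4C#1 and 3.73 ± 0.216 times under Si-KDM4C#2. CCT5 shares 30.1% of its exon bases with the antisense gene AC012640.4, CCT4 12.6% with genes including COMMD1, and CCT6A has 3 listed pseudogenes at 5.26 to 6.73 FPKM in sum.

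**Figure D5:**
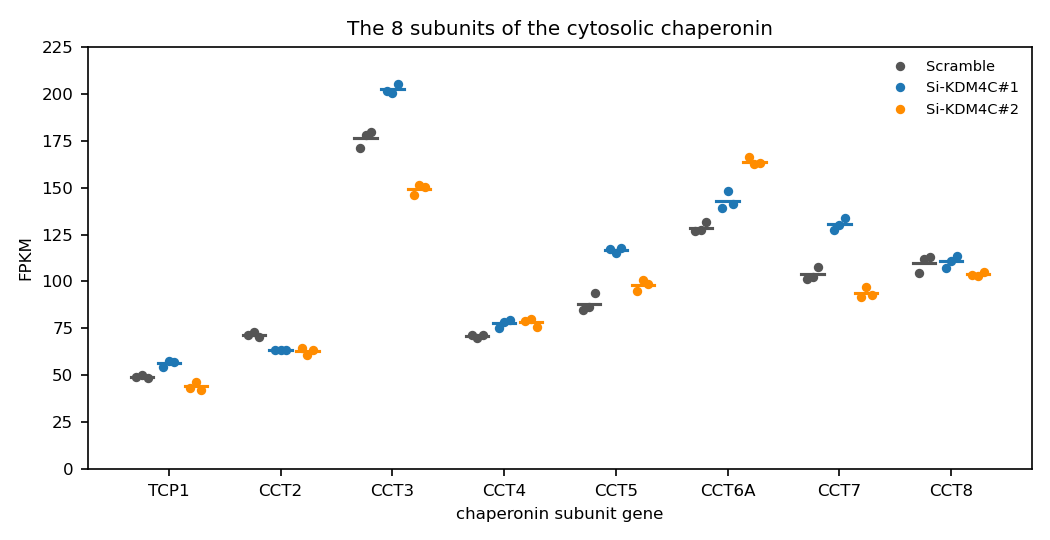
FPKM of the 8 genes of the cytosolic chaperonin in each library (points) with the group mean (line); the axis starts at 0. CCT3 was highest in Scramble and under Si-KDM4C#1, CCT6A was highest under Si-KDM4C#2, TCP1 was lowest in all groups, and TCP1, CCT3 and CCT7 lay above Scramble under Si-KDM4C#1 and below it under Si-KDM4C#2; under quantile normalization the Si-KDM4C#1 rise of TCP1 and CCT3 did not pass the limma-trend test.

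The promoter letters can be set beside these changes. Of the 7 genes with a run of 3 units, HSPA8, HSPD1, HSP90AA1, HSP90AB1 and DNAJA1 rose under Si-KDM4C#2, and DNAJB6 and CHORDC1 did not pass. Beside this, 34.4% of all genes tested and 64.9% of the 37 genes rose, and the HSP90AB1 rise did not pass under the other scalings. With Si-KDM4C#1, HSPA8 and DNAJB6 rose, HSP90AB1, DNAJA1 and CHORDC1 fell, and HSPD1 and HSP90AA1 did not pass. Of all genes tested, 31.7% rose and 33.9% fell with that siRNA. HSPA1A and HSPA1B carried 1 pair in the window each. HSPB8 carried 2 pairs and fell. Of the other genes with pairs alone, HSPA9, STIP1 and CCT4 rose with both siRNAs and CCT2 fell with both. HSPB1 and DNAJB1 rose and HSPA4L fell under Si-KDM4C#2 only. TCP1 rose under Si-KDM4C#1 and fell under Si-KDM4C#2, and DNAJB4 passed with neither. Genes without a match went both ways: AHSA1 and HSPE1 rose and HSPA4 and DNAJB2 fell, each with both siRNAs. Whether matches go with change was not tested. A match describes the letters in this window only.

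Other genes of the folding pathways were read from lists of 101 genes, of which 99 were listed once and 87 tested. With Si-KDM4C#1, 35 rose (against 31.7% of all genes tested) and 32 fell (33.9%), and under Si-KDM4C#2 34 rose (34.4%) and 23 fell (25.0%). The same shares stand as background for the shorter lists. Values for all these lists come from limma-trend on log2(FPKM + 1) only. Calls close to the 2-fold limit were not read under the other scalings. Among 18 tested partners of HSP90, 11 rose and 3 fell under Si-KDM4C#1. CDC37, which loads kinases onto HSP90, went from 41.6 ± 1.48 FPKM to 90.9 ± 5.48 and 61.1 ± 2.63 (log2 1.11 and 0.54). UNC45A, a myosin co-chaperone, TELO2 and NUDC were also called higher (1.55, 1.06 and 1.04). CDC37L1 fell (-1.29), as did HSP90B1, the HSP90 of the endoplasmic reticulum, from 278 ± 11.8 to 73.7 ± 6.55 FPKM (-1.90, adjusted p = 2.70e-08), with 204 ± 13.1 FPKM under Si-KDM4C#2 (-0.44). With Si-KDM4C#2, 10 of the 18 rose and 2 fell, and FKBP5, an immunophilin, was the only one called (1.24, adjusted p = 3.92e-07). In the direct comparison CDC37L1 and HSP90B1 were called higher under Si-KDM4C#2 (1.41 and 1.46).

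Among 11 tested HSP70 partners, 5 rose and 5 fell under Si-KDM4C#1, and 5 rose and 3 fell under Si-KDM4C#2. HSPA5 (BiP), the HSP70 of the endoplasmic reticulum, fell from 357 ± 12.1 FPKM to 168 ± 5.72 and 217 ± 11.4 (-1.08 and -0.72), opposite to HSPA1A. Among 28 tested J-domain genes outside the set, 6 rose and 13 fell under Si-KDM4C#1, 7 rose and 9 fell under Si-KDM4C#2, and DNAJC30 was called (1.01 under Si-KDM4C#1). Of 13 tested prefoldin and tubulin-folding partners of the chaperonin, 3 rose and 4 fell under Si-KDM4C#1. Subunits of the prefoldin hexamer, which passes actin and tubulin to CCT, moved apart: PFDN2 (1.31) and PFDN6 (1.06) were called higher and PFDN4 lower (-1.41), and PFDN4 was higher under Si-KDM4C#2 than under Si-KDM4C#1 by 1.38 (adjusted p = 1.43e-06). PDCL3 was likewise called higher in that direct comparison (1.05, adjusted p = 3.10e-05). With Si-KDM4C#2, 6 of the 13 rose and 3 fell, none past 2-fold.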

How the data were processed

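RNA-seq was read for 9 libraries, 3 per group. Each library has 1 deposited list, in which the values are FPKM as computed by the authors. The submitters' processing notes name FastQC 0.11.5, HISAT2 2.1.0, StringTie 1.3.3b, featureCounts, DESeq 1.28.0 and GRCh38. No scaling between libraries is stated, and handling of strand and of reads with several map positions is not given in the sources used here.

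FPKM were multiplied by GENCODE 29 exon length and a fitted library total. Between 97.54% and 97.68% of nonzero values per library then came out as whole fragments within 0.05, and 38 of the 39 genes in all libraries (not HSPA9). Each of the 37 genes that averaged 1 FPKM or more had at least 281 fragments in every library, and counting error was small for them. The 9 pairs of libraries within groups were all further apart than counting error (chi-square divided by its degrees of freedom 2.56 to 5.75).

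The 14363 genes that averaged 1 FPKM or more in any group were compared on log2(FPKM + 1) with limma-trend (limma 3.58.1, R 4.3.3), all libraries in 1 fit, no covariates, with Benjamini-Hochberg adjustment over all of them. The fit was tested on simulated data only for planted changes well past the 2-fold limit, not for smaller changes. Python 3.11.15 with pandas 2.3.3, numpy 2.4.6 and matplotlib 3.10.9 served for the rest. Per-library values are given for genes called in any comparison, for 14 genes named by function and for the chaperonin subunits with the highest and lowest mean level over all libraries. CCT6A was named after its values were seen. In the wider lists, genes called in any comparison are named. The members and lists were chosen with earlier results of these data known.

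Alternatives were quantile normalization, median-ratio size factors, limma-voom on recovered fragments (16010 genes), lowess adjustment for GC content, a pseudocount of 0.1, no filter, at least 1 FPKM in every library, the libraries of each comparison by themselves, a replicate block, no fold limit, the fold tested against 2, and leaving out each library in turn. The GC adjustment together with the block was chosen after seeing the data. Promoter windows are from RefSeq (GRCh38.p14).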

Additional observations from a re-analysis of the deposited data

How the results depend on the processing

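Of 1026 values for the named genes under the alternatives, 953 kept their direction and their side of the threshold, 34 lost the call, 23 gained it and 16 turned. The count of 953 includes settings in which the log2 fold change equals the main one by construction, so that only the adjusted p could differ. These are the other filters, the libraries of each comparison by themselves, the replicate block, and leaving out a library of the group outside the comparison. Of the members under Si-KDM4C#1, 5 were lower with median-ratio size factors, and 2 were called lower with quantile normalization. When the fold was tested against 2, 0 were called lower under either siRNA and 1 higher in the direct comparison. Without a fold limit the calls were 20 higher and 8 lower under Si-KDM4C#1, 24 and 8 under Si-KDM4C#2, and 13 and 12 in the direct comparison, where 19 were lower with median-ratio size factors and 22 with limma-voom.

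The members' median under Si-KDM4C#1 turned to -0.042 with quantile normalization and was 0.23 with median-ratio size factors, 0.21 after GC adjustment, 0.22 with limma-voom, and 0.12 to 0.17 without 1 library. Under Si-KDM4C#2 it was 0.17, 0.23, 0.22 and 0.23 in the same order of settings. In the direct comparison it turned to 0.0013 with quantile normalization and was -0.17, -0.11 and -0.16 under the others, and -0.044 to -0.021 without 1 library.

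Under Si-KDM4C#1, quantile normalization turned HSP90AA1 (-0.16, adjusted p = 0.0252), HSPD1 (-0.11) and HSPB1 (-0.042), GC adjustment turned HSPB1 (-0.16) and HSPH1 (0.12), and DNAJB1 was 0.076 with median-ratio size factors and with limma-voom, and -0.18 with quantile normalization (adjusted p = 0.0117). Without 1 library, HSP90AA1 ran from -0.0041 to 0.097 and DNAJB1 from -0.025 to 0.017. In the direct comparison HSPA1B was 0.016 with quantile normalization and -0.058 to 0.0094 without 1 library, and HSPE1 -0.14 to 0.014. The cause was not tested.

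Replicate numbers did not pair the libraries: deviations from the group means had a mean correlation of 0.016 over 9 pairs with the same number and -0.0081 over 18 with different numbers. With the replicate block the members' counts were 20 higher and 7 lower under Si-KDM4C#1 and 24 and 8 under Si-KDM4C#2. Every group holds every replicate number, so the block cannot change a log2 fold change, and the medians were the same by construction. The GC adjustment with the block was chosen after seeing the data. For the same reason the block could not alter its medians (0.21, 0.22 and -0.11) or its turns of HSPB1 (-0.16) and HSPH1 (0.12).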

Other observations

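Genes of mitochondrial protein quality control outside the set were also read. With Si-KDM4C#1, 7 of 10 rose and 3 fell, against 31.7% and 33.9% of all genes tested. LONP1, the matrix protease that degrades misfolded proteins, stood at 21.9 ± 2.47 FPKM in Scramble, 71.3 ± 1.44 under Si-KDM4C#1 and 46.9 ± 2.1 under Si-KDM4C#2 (log2 fold change 1.66 and 1.07, limma-trend adjusted p = 7.13e-08 and 1.79e-06). AFG3L2, a protease of the inner membrane, was called under Si-KDM4C#2 (1.01, adjusted p = 3.05e-07) and rose by 0.19 under Si-KDM4C#1. With Si-KDM4C#2, 4 of the 10 rose and 3 fell, against 34.4% and 25.0%. In the direct comparison 7 of the 10 were lower under Si-KDM4C#2 and 3 higher, against 26.5% and 35.9% of all genes tested. This split was not read under the other scalings.

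Of 7 tested small heat shock proteins and other heat shock factors outside the set, 3 rose and 4 fell under Si-KDM4C#1, and 2 rose and 3 fell under Si-KDM4C#2. HSPB7, known from heart muscle, was at 21.6 ± 0.802 FPKM in Scramble, 9.76 ± 0.798 under Si-KDM4C#1 (-1.07, adjusted p = 5.23e-07) and 17.6 ± 1.18 under Si-KDM4C#2 (-0.28, adjusted p = 0.00443). HSF4, a factor known from the lens, rose by 0.32 and 0.70.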
